A study of Homo sapiens with 15 samples.

Results

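Transcripts of 10 genes of the ATF4 pathway were followed in MCF10 cells, an established human mammary epithelial line, with and without guide RNAs against NF1. NF1 encodes neurofibromin, a protein that switches off Ras. The 10 genes are ATF4, DDIT3, TRIB3, ASNS, CHAC1, PSAT1, PHGDH, SHMT2, MTHFD2 and SLC7A11, chosen by name as members of that pathway and matched by symbol to 10 of the 60721 Ensembl gene identifiers in the table. All 10 had enough counts to be tested, among 17457 genes tested. Polyadenylated RNA was sequenced in 15 libraries of 5 genotypes with 3 biological replicates each. These were parental cells (labelled Parental), cells with the empty vector (EV), and lines made with guide 1 (NF1-g1), guide 2 (NF1-g2) or both guides (NF1-g1/g2). Every group received the same medium, with horse serum, EGF, hydrocortisone, cholera toxin and insulin, and no treatment, so no amino acid was withdrawn and no stress agent was added. Whether a line is a single clone, and whether replicates came from separate cultures, is not given in the sources used here, so p-values measure the spread between these libraries.

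ATF4 is a transcription factor whose translation rises when kinases that sense amino acid shortage, protein misfolding, haem lack or double-stranded RNA phosphorylate the initiation factor eIF2α. It binds composite response elements together with C/EBP proteins and turns on genes for amino acid synthesis, amino acid uptake and transfer RNA charging. Because ATF4 is controlled largely at translation, its transcript level is not a measure of its protein, and its target transcripts are commonly used as the readout. Among those targets, DDIT3 (CHOP) and TRIB3 are regulators, PHGDH, PSAT1 and ASNS make serine and asparagine, and SHMT2 and MTHFD2 carry the mitochondrial folate pathway. SLC7A11 imports cystine and CHAC1 breaks down glutathione. In breast epithelium the serine branch is known for its variation between cell types and for PHGDH gain in some tumours.

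The letters of a composite element core, TGATGNAA (on the other strand TTNCATCA), were searched on both strands of the 250 bases before each annotated start in RefSeq (GRCh38.p14). They occurred in 1061 of 27305 genes, or 3.89%, and in 2 of the 8 members with a record, ASNS and CHAC1. The ASNS stretch is chr7:97872458-97872487 on the minus strand, its motif starting 68 bases before the RefSeq start, and the CHAC1 stretch is chr15:40953251-40953280 on the plus strand, 209 bases before. In GENCODE release 29 both stretches also lie in the first exon of a transcript that starts farther upstream. They are shown, 5′ to 3′ on the strand of the gene with the motif in capitals, because the search found the letters in these members. Elements farther from the start or with other letters were not searched, so the other members may carry them. SHMT2 and SLC7A11 were not searched.
ASNS: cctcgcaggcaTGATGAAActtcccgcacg
CHAC1: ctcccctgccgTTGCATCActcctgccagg

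Library totals ranged from 46129559 to 78976917 counts, and 3 counts, the smallest level taken as detected, equalled 0.038 to 0.065 CPM (counts scaled to a common library total). NF1 checked the labels of edited against unedited libraries. It was 115 to 133 CPM in the empty vector and 141 to 159 in parental cells. With guide 1 it was 43.6 to 51.3 CPM, with guide 2 27.0 to 31.4 and with both guides 26.0 to 29.4. Because the ranges of guide 2 and both guides overlapped, NF1 cannot tell these labels apart. Parental cells against empty vector were not called for NF1 (log2 fold change 0.25, edgeR adjusted p 0.121). Guide 2 replicate 2 stood apart from its own genotype. Between it and the other guide 2 libraries 76.8% and 76.6% of genes differed beyond counting noise, against 33.4% between those 2. Its summed CPM over 10 mammary epithelial markers was 9552, against 2333 and 2451 in the other guide 2 libraries. KRT5 alone gave 4997 CPM of that sum. The rise did not cover all 10 markers, since KRT8 had its lowest level of the 15 libraries there, at 70.2 CPM. The sum of guide 2 replicate 2 over 10 mesenchymal markers was the lowest of the 15 libraries, at 3999. All 10 epithelial markers had a mean of at least 1 CPM, but CDH1 (E-cadherin) was 0.019 to 0.158 CPM in the guide 1 line and 0.036 and 0.043 CPM in guide 2 replicates 1 and 3, around the detection limit, against 44.1 to 127 CPM in the empty vector. Of 8 markers of other cell types 1 had a mean of at least 1 CPM, their sum was 1.23 to 2.57 CPM, and CD3E had no count. Libraries of other genotypes also differed beyond counting noise. Guide 1 replicate 3 differed from replicates 1 and 2 in 58.3% and 61.7% of genes, against 29.3% between replicates 1 and 2. Between parental libraries 49.2% to 65.8% of genes differed. The calls of the members, and the list counts for the mean of edited lines against empty vector, are given with and without guide 2 replicate 2.

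The pathway was expressed at very different levels by its members, compared here as CPM per kilobase of annotated exon. The mean over the 15 libraries was 107 ± 10.5 for ATF4, 46.9 ± 7.68 for PSAT1, 34.2 ± 3.49 for MTHFD2, 33.6 ± 1.99 for SHMT2 and 23.2 ± 4.50 for SLC7A11 (SD, n = 15). TRIB3 had 7.21 ± 2.65, PHGDH 5.36 ± 1.73, DDIT3 2.07 ± 0.242, CHAC1 0.351 ± 0.0758 and ASNS 0.0434 ± 0.0245 (SD, n = 15). The upper members, from ATF4 to SLC7A11, are thus a factor, metabolic enzymes and a transporter. DDIT3 and CHAC1, which are strongly induced when the pathway is active in stressed cells, were near the bottom. The lowest was the enzyme ASNS, whose level is uncertain for reasons given below. In all 15 libraries ATF4 was above PSAT1, PSAT1 above MTHFD2 and SHMT2 above SLC7A11. The order was not fixed for MTHFD2 over SHMT2, which held in 9 of 15 libraries, for TRIB3 over PHGDH, which also held in 9 of 15, or for PHGDH over DDIT3, which held in 14 of 15.

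**Figure D1:**
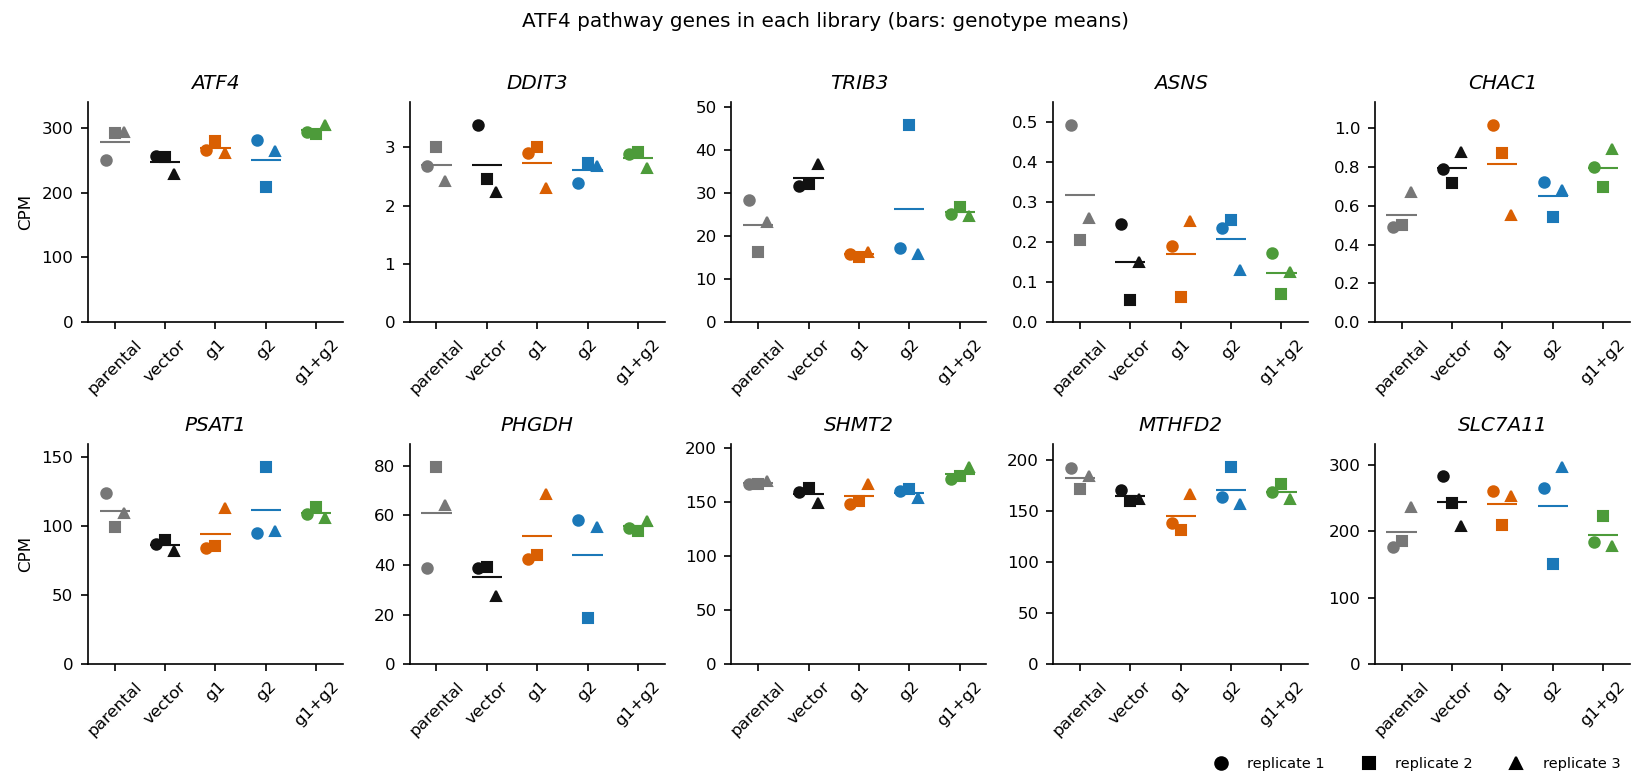
CPM of the 10 ATF4 pathway genes (vertical axes, each from 0) in every library, by genotype; symbols mark replicates 1 to 3 and bars mark genotype means. TRIB3 is 31.7 to 36.7 CPM in the empty vector (vector) and 15.2 to 16.3 with guide 1 (g1), while guide 2 (g2) replicate 2 has the highest TRIB3, at 45.8, and the lowest PHGDH, at 18.6.

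The question the design poses is whether any of these transcripts changes when NF1 is lowered. With all 15 libraries, edgeR's quasi-likelihood test called 0 of 10 members, at an adjusted p under 0.05, in each of 12 comparisons. Against the empty vector the share of all tested genes called was 6.43% for the mean of the 3 edited lines, 5.88% for guide 1, 3.94% for guide 2, 0.962% for both guides and 4.37% for parental cells. At these shares a set of 10 genes gives few calls or none, so the count of 0 does not set the members apart. At an unadjusted p under 0.05 the members counted 2 for the mean of edited lines (TRIB3 and PSAT1), 1 for guide 1, 1 for guide 2, 3 for both guides and 2 for parental cells. Of all 17457 genes 3592, 3736, 3293, 2444 and 3448 met that threshold in the same order, so the members' counts were near the background. DESeq2 called 1 member, TRIB3 in guide 1 against empty vector, where it called 1847 genes, and 0 in the other comparisons. A fit that weights each library by its own spread (voom with sample quality weights) gave guide 2 replicate 2 a weight of 0.052 and called 4, 2, 2, 5 and 5 members in the same order, out of 6426, 7424, 5804, 4666 and 6343 genes called. The median log2 fold change of the members was 0.02 for the mean of edited lines, where the median of all tested genes was also 0.02, and 0.09 against 0.01 for parental cells.

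Without guide 2 replicate 2, edgeR called TRIB3 lower and PHGDH higher in the mean of edited lines against empty vector, where 18.8% of 17849 genes were called. The same 2 members were called, in the same directions, in unedited parental cells against empty vector, where 13.9% of genes were called. TRIB3 alone was called with guide 1 (18.1% of genes) and with guide 2 (14.5%), and 0 members with both guides (6.7%), where 6 members had an unadjusted p under 0.05, as did 3922 of the 17849 genes. All these comparisons share the empty vector libraries.

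**Figure D2:**
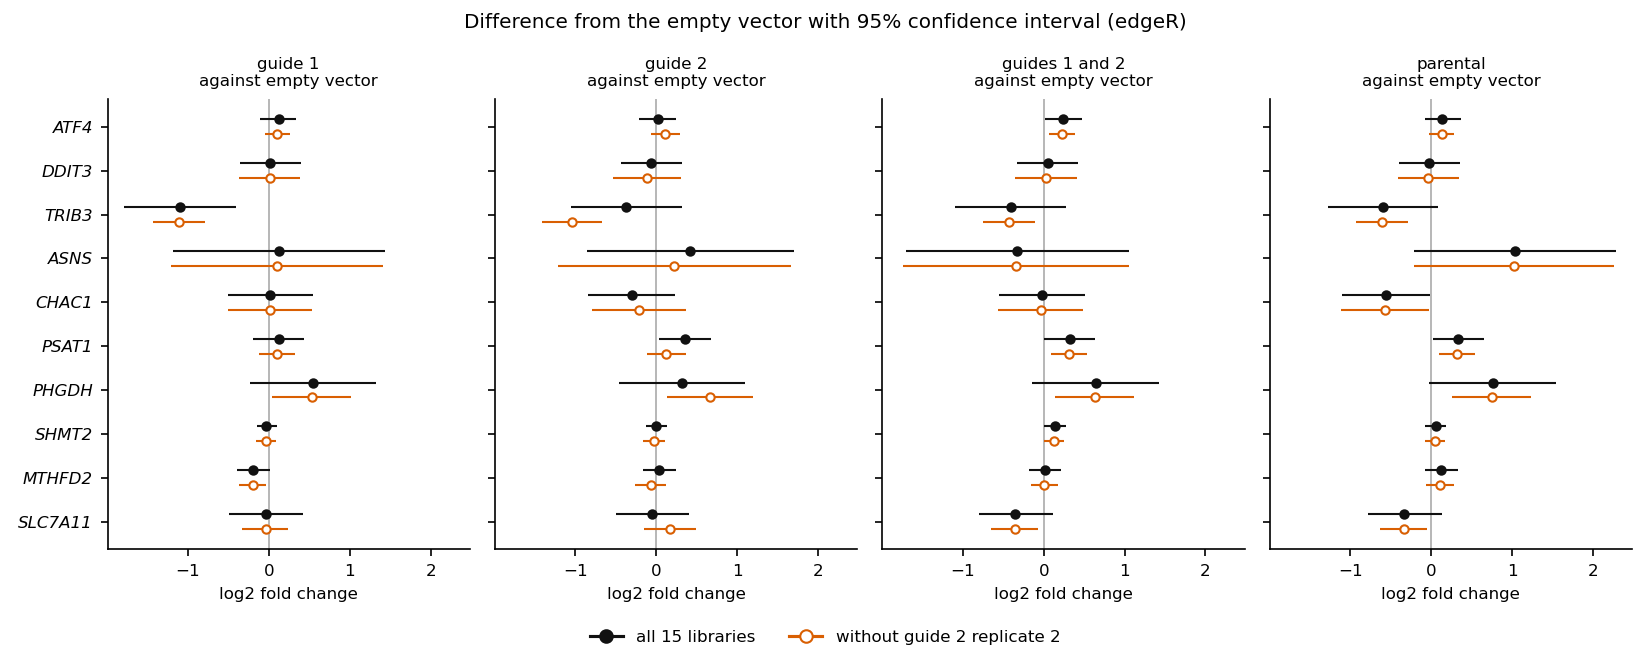
Log2 fold change (horizontal axis) of each member against the empty vector with its 95% confidence interval from edgeR, in the 3 edited lines and in parental cells; filled points use all 15 libraries and open points leave out guide 2 replicate 2. TRIB3 with guide 2 is -0.37 with that library and -1.04 without it, while TRIB3 in guide 1 is -1.10 and -1.11.

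TRIB3 is a pseudokinase that is induced by ATF4 and CHOP and feeds back on both. It had the smallest adjusted p of the members in guide 1 and in the mean of edited lines against the empty vector, in which it was 31.7, 32.0 and 36.7 CPM. With guide 1 it was 15.8, 15.2 and 16.3 CPM, with guide 2 it was 17.3, 45.8 and 15.9 CPM, with both guides it was 25.2, 26.8 and 24.7 CPM, and in parental cells it was 28.3, 16.2 and 23.3 CPM. Every library outside the empty vector was below it except guide 2 replicate 2, which was the highest of all 15.

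The TRIB3 log2 fold change of guide 1 against empty vector was -1.10 (SE 0.32, 95% interval -1.79 to -0.41), and edgeR's adjusted p of 0.0621 missed the threshold. It passed when any guide 2 library was left out, with adjusted p of 0.0448 without replicate 1, 0.000386 without replicate 2 and 0.0342 without replicate 3. These libraries enter this comparison only through the shared estimate of the spread and the genes tested. The fit of guide 1 and empty vector alone gave -1.09, with an edgeR adjusted p of 0.000452, and called 2608 genes. Of these settings, none turned the direction.

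With guide 2, TRIB3 had a log2 fold change of -0.37 (SE 0.316, adjusted p 0.587 by edgeR) with all libraries and -1.04 (SE 0.172, adjusted p 0.00186) without replicate 2. With both guides it was -0.41 (SE 0.316, adjusted p 0.641) and -0.43 (adjusted p 0.107), called in neither of these fits. With only that line and the empty vector in the fit, it was called at -0.43 (edgeR adjusted p 0.00519), where 3054 genes were called. Parental cells, which carry no guide, had -0.60 (SE 0.317, adjusted p 0.326) and, without that library, -0.61 (adjusted p 0.017). Against parental cells without that library, TRIB3 was -0.50 with guide 1 (adjusted p 0.0431), -0.43 with guide 2 (adjusted p 0.144) and 0.18 with both guides (adjusted p 0.561). The mean of these lines against parental cells, also without that library, was -0.25 (95% interval -0.51 to 0.02, adjusted p 0.19 by edgeR). With all 15 libraries edgeR gave -0.03 for that mean (95% interval -0.59 to 0.53, adjusted p 0.971). The lines then had -0.50 with guide 1, 0.23 with guide 2 and 0.18 with both guides, and none was called. Voom with sample quality weights, on all 15 libraries, called the mean at -0.24 (adjusted p 0.0318), where it called 7458 genes.

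The highest TRIB3 levels were in the libraries with the highest epithelial marker sums. The 5 libraries with the highest epithelial marker sums were the 3 empty vector libraries, guide 2 replicate 2 and parental replicate 1, with 4954 to 9552 CPM. The same 5 had the highest TRIB3 and the lowest PHGDH of the 15. Below them, TRIB3 differed between lines at similar marker sums. Guide 1 replicates 1 and 2 had sums of 2779 and 3004 CPM, with TRIB3 at 15.8 and 15.2 CPM. The libraries with both guides had sums of 2911 to 3128 CPM, with TRIB3 at 24.7 to 26.8 CPM. A correlation of TRIB3 with the marker sum was not computed. By genotype the marker sum was 4954 to 7047 CPM in the empty vector, 1936 to 3004 with guide 1, 2911 to 3128 with both guides and 2257 to 5626 in parental cells. The part of these markers in the TRIB3 and PHGDH results was not tested. In bulk RNA, fewer cells of a type and less RNA per cell cannot be told apart.

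**Figure D3:**
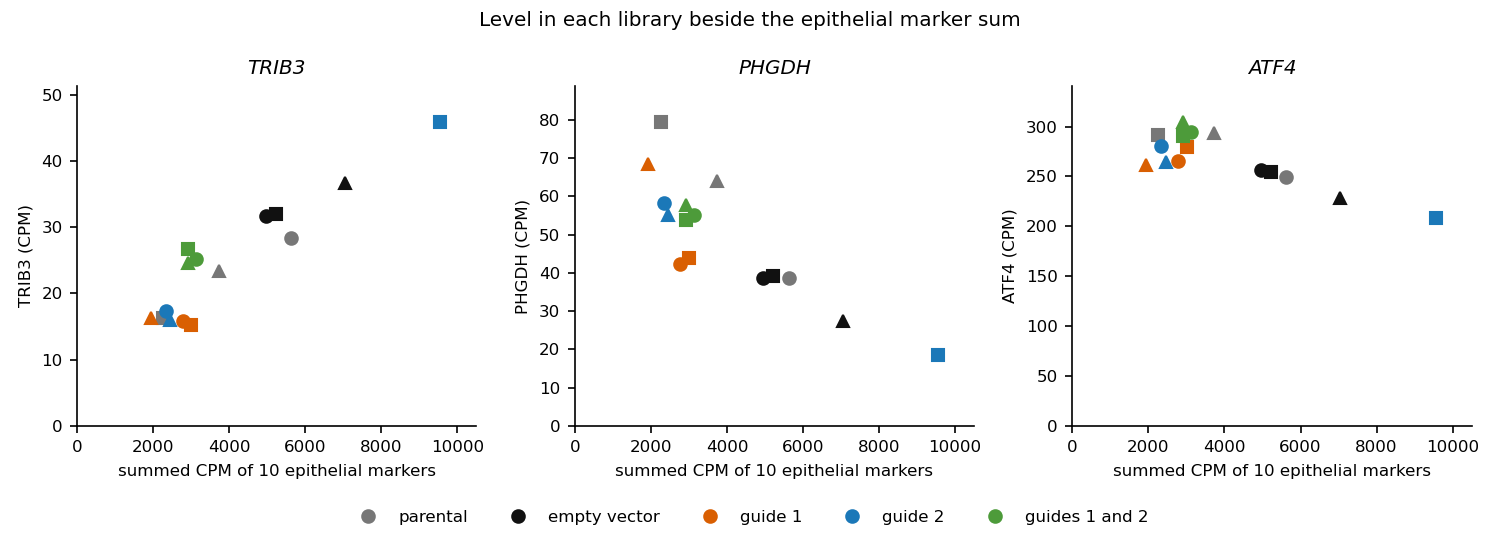
CPM of TRIB3, PHGDH and ATF4 (vertical axes) against the summed CPM of 10 mammary epithelial markers (horizontal axis), 1 point per library, coloured by genotype, with replicates as in the plot of members by library. Guide 2 replicate 2, at 9552 CPM of markers, has the highest TRIB3 and the lowest PHGDH and ATF4.

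ATF4 itself varied little. It was 257, 255 and 228 CPM in the empty vector, 266, 280 and 262 with guide 1, 281, 209 and 264 with guide 2, 294, 290 and 304 with both guides and 250, 292 and 293 in parental cells. The guide 1 libraries and the libraries with both guides were all above the empty vector libraries, whereas those of guide 2 and parental cells overlapped with them. The highest ATF4 was with both guides, at 296 ± 7.07 CPM against 247 ± 15.9 in the empty vector (SD, n = 3 each), a log2 difference of 0.24 (95% interval 0.02 to 0.47, edgeR adjusted p 0.308). Alone with the empty vector in the fit, that difference was 0.23 and was called (edgeR adjusted p 0.0213). That fit called 3054 genes, against 168 in the same comparison with all 15 libraries.

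DDIT3, the factor CHOP that mediates the death arm of prolonged stress, overlapped between all 5 genotypes. It was 3.38, 2.45 and 2.24 CPM in the empty vector, 2.91, 3.01 and 2.29 with guide 1, 2.38, 2.74 and 2.69 with guide 2, 2.88, 2.92 and 2.65 with both guides and 2.68, 3.01 and 2.42 in parental cells. Genotype accounted for 5.14% of its variance in log2 CPM, against a median of 39.8% over all tested genes. For the mean of edited lines the log2 fold change was 0.00 with a 95% interval of -0.31 to 0.31, which bounds a change in either direction. DDIT3 shares 33.5% of its coding bases with exons of genes on the opposite strand, mainly the methionyl-tRNA synthetase gene MARS, and the use of strand in the counting is not given in the sources used here.

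PHGDH is the entry enzyme of serine synthesis from glycolysis. It was 38.6, 39.2 and 27.3 CPM in the empty vector, 42.3, 44.0 and 68.6 with guide 1, 58.2, 18.6 and 55.2 with guide 2, 55.1, 53.8 and 57.7 with both guides and 38.7, 79.3 and 64.1 in parental cells. Guide 1 and both guides lay above all empty vector libraries, guide 2 replicate 2 lay below them, and parental replicate 1 lay among them.

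The PHGDH log2 fold change of the mean of edited lines against empty vector was 0.51 (SE 0.304, edgeR adjusted p 0.385), and without guide 2 replicate 2 it was 0.61 (SE 0.195, adjusted p 0.0437). Parental cells gave 0.76 (SE 0.363, adjusted p 0.267) and 0.75 (adjusted p 0.0441). Without that library no single edited line was called, at 0.53 with guide 1 (adjusted p 0.125), 0.67 with guide 2 (adjusted p 0.0964) and 0.63 with both guides (adjusted p 0.12 by edgeR). With only both guides and the empty vector in the fit, PHGDH rose by 0.63 (edgeR adjusted p 0.00714), where 3054 genes were called. The empty vector had the lowest mean PHGDH of the 5 genotypes, at 35.0 ± 6.70 CPM (SD, n = 3).

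PSAT1, the aminotransferase that follows PHGDH, was also lowest in the empty vector. It was 86.8, 89.8 and 82.3 CPM there, 84.2, 85.5 and 113 with guide 1, 95.4, 143 and 96.7 with guide 2, 109, 114 and 106 with both guides and 124, 99.4 and 110 in parental cells. All libraries of guide 2, both guides and parental cells exceeded the empty vector, and guide 1 overlapped with it. With all 15 libraries edgeR called none of these differences: the mean of edited lines had a log2 fold change of 0.26 (SE 0.122, adjusted p 0.243) and parental cells 0.33 (SE 0.147, adjusted p 0.229). With only both guides and the empty vector in the fit, PSAT1 rose by 0.31 (edgeR adjusted p 0.00448), where 3054 genes were called. In guide 2 replicate 2 the 2 serine enzymes went apart, since that library had the highest PSAT1 and the lowest PHGDH.

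ASNS, which makes asparagine from aspartate, was close to the detection limit. Its counts were 3 to 28 per library, or 0.055 to 0.491 CPM, and the highest value was parental replicate 1. The log2 fold change of the mean of edited lines was 0.07, with a 95% interval of -1.02 to 1.16 that spans a change of 2-fold in either direction. The level itself is uncertain: 96.1% of its coding bases lie in exons of a second gene model on the same strand, ENSG00000284707, which had at most 60 counts, and how the authors' counting treated reads in 2 models is not given in the sources used here. Of the 757 coding genes with at least 95% of their coding bases shared in this way, 679 (89.7%) had a mean under 1 CPM, against 39.9% of the 17503 that share none. The effect of the shared bases on the ASNS count was not tested.

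SHMT2 and MTHFD2 pass one-carbon units from serine into mitochondrial folate. SHMT2 was the steadiest member, with a within-genotype SD of 0.0532 in log2 CPM against a median of 0.249 over all tested genes. It was 159, 163 and 148 CPM in the empty vector, 148, 151 and 167 with guide 1, 160, 161 and 154 with guide 2, 171, 173 and 182 with both guides and 166, 167 and 169 in parental cells. Both guides and parental cells lay above the empty vector without overlap, but by little: with both guides the log2 difference was 0.14 (SE 0.0596, adjusted p 0.31 by edgeR).

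MTHFD2 was 171, 160 and 162 CPM in the empty vector and 192, 171 and 185 in parental cells, which did not overlap. It was 138, 131 and 167 with guide 1, 164, 193 and 156 with guide 2 and 169, 176 and 162 with both guides. Guide 1 replicates 1 and 2 were the lowest libraries, while guide 1 replicate 3 lay among the others. The log2 fold change of guide 1 against parental cells was -0.31 (SE 0.0944, edgeR adjusted p 0.17). It was called at -0.41 without guide 1 replicate 3 (adjusted p 0.019) and at -0.31 without guide 2 replicate 2 (adjusted p 0.0255). In exons 33.2% of MTHFD2 bases are shared with genes on the opposite strand, mainly SLC4A5, which had at most 9 counts.

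SLC7A11, the cystine importer that is also induced by NRF2, was 284, 243 and 208 CPM in the empty vector, 261, 210 and 253 with guide 1, 265, 152 and 297 with guide 2, 184, 223 and 179 with both guides and 176, 185 and 237 in parental cells. Each genotype overlapped with the empty vector. The lowest value was again guide 2 replicate 2, and the largest difference from the empty vector was with both guides, at -0.35 on the log2 scale (SE 0.21, adjusted p 0.52 by edgeR). CHAC1, the glutathione-degrading enzyme and a sensitive ATF4 target, had 28 to 69 counts per library. It was 0.719 to 0.877 CPM in the empty vector, 0.554 to 1.02 with guide 1, 0.544 to 0.723 with guide 2, 0.695 to 0.894 with both guides and 0.491 to 0.671 in parental cells, where all libraries were below the empty vector (log2 fold change -0.56, SE 0.251, edgeR adjusted p 0.241).

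Counting members whose libraries did not overlap with those of the empty vector gave 3 with guide 1 (ATF4 and PHGDH higher, TRIB3 lower), 1 with guide 2 (PSAT1 higher), 5 with both guides and 5 in parental cells. The shares of all tested genes that did not overlap were 36.2%, 23.1%, 37.7% and 32.1%. With 10 members, counts of 1 to 5 are too few to be read as different from these shares. TRIB3 was below the empty vector in 3 of the 4 groups, and in the other, guide 2, it was below in 2 of 3 libraries.

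Against parental cells and between lines the calls were few for all genes. edgeR called 0 of 10 members where it called 0.166% of genes for the mean of edited lines against parental, 0.149% for guide 1, 0.0516% for guide 2 and 0.195% for both guides. Between lines it called 0 of 10 where it called 0.0401% of genes for guide 1 against guide 2, 0.275% for both guides against guide 1 and 0.149% for both guides against guide 2. At an unadjusted p under 0.05 the members counted 2, 2, 0, 1, 2, 2 and 2 in this order, against 2170, 3471, 1287, 1742, 2648, 2270 and 1012 of 17457 genes, and DESeq2 called 0 in each. Voom with sample quality weights called 4, 6, 2, 0, 2, 7 and 3 members, out of 7458, 9230, 5682, 3725, 3524, 8113 and 2650 genes called. Without guide 2 replicate 2, edgeR called TRIB3 in guide 1 against parental cells (log2 fold change -0.50, adjusted p 0.0431), where MTHFD2 and 14.5% of genes were also called, and in both guides against guide 1 (0.68, adjusted p 0.0235; 4.55% of genes). In the other comparisons it called 0 of 10: the mean of edited lines against parental (13.1% of genes), guide 2 and both guides against parental (5.96% and 2.62%), guide 1 against guide 2 (0.162%) and both guides against guide 2 (1.83%). There, in the same order, 4, 2, 2, 0 and 3 members had an unadjusted p under 0.05, against 5504, 4322, 3169, 1440 and 2280 of 17849 genes. In that fit the line with both guides thus had 1.61-fold more TRIB3 than the guide 1 line, although both carry guide 1.

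The wider pathway was read from further lists. Of 8 eIF2α kinase and phosphatase genes tested, edgeR called 0 in the mean of edited lines against empty vector, where 2 had an unadjusted p under 0.05, with EIF2AK3, which encodes the ER stress kinase PERK, at -0.28 (adjusted p 0.0639) and -0.28 (adjusted p 0.0186) without guide 2 replicate 2. Of all tested genes in this comparison, 6.43% were called and 3592 of 17457 had an unadjusted p under 0.05. Of 14 other ATF4-induced regulators 7 had an unadjusted p under 0.05, and by adjusted p 0 rose and 1 fell. The latter was ADM2, a secreted peptide gene with only 9 to 36 counts per library. ADM2 had 0.461 to 0.671 CPM in the empty vector and 0.158 to 0.434 CPM in the 9 edited libraries (log2 fold change -1.19, SE 0.271, edgeR adjusted p 0.0197). The 9 edited libraries did not overlap with the empty vector, and the share of all genes for which this holds was not computed. For single edited lines, a looser criterion, 23.1% to 37.7% of all tested genes did not overlap with the empty vector. Against parental cells edgeR called 0 of the 14 in the mean of edited lines, where it called 0.166% of genes.

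DDIT4, an mTORC1 inhibitor induced by ATF4 among other factors, rose with guide 1 (log2 fold change 0.61, edgeR adjusted p 0.0216) and in parental cells (0.90, adjusted p 0.00533). SESN2, another ATF4-induced inhibitor of mTORC1, fell with guide 2 (-0.49, adjusted p 0.0292) and in parental cells (-0.61, adjusted p 0.0127). These 2 regulators of the same growth pathway moved in opposite directions in parental cells.

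Among 11 other genes of serine, glycine, proline and asparagine metabolism, edgeR called 0 in the mean of edited lines, where 4 had an unadjusted p under 0.05. PSPH, which completes serine synthesis after PSAT1, was 23.5 to 28.3 CPM in the empty vector and 27.7 to 33.3 in the edited libraries (log2 fold change 0.22, adjusted p 0.0752), and it rose in parental cells (0.32, adjusted p 0.0423). Of 9 other amino acid transporters 0 rose and 1 fell, the glycine transporter gene SLC6A9. It was 7.23 to 7.85 CPM in the empty vector and 3.62 to 6.70 in the edited libraries (log2 fold change -0.51, edgeR adjusted p 0.0492). Against parental cells 0 of the 9 transporters were called in the mean of edited lines, where 0.166% of genes were called.

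Of 14 aminoacyl-tRNA synthetase genes 0 were called in the mean of edited lines (1 with an unadjusted p under 0.05), and WARS1, for tryptophan, fell in parental cells (-0.35, edgeR adjusted p 0.0256). Of 8 cytosolic and other folate enzymes 0 were called (1 unadjusted), and of 11 NRF2 and glutathione genes 0 were called (2 unadjusted). TYMS, which makes thymidylate from folate, had a log2 fold change of 0.38 (adjusted p 0.129), and CHAC2, a glutathione-degrading relative of CHAC1, had 0.31 (adjusted p 0.147). Of 10 proliferation genes 2 rose, CDK1 (0.61, adjusted p 0.0302) and TOP2A (0.63, adjusted p 0.0445). Both also rose in parental cells against empty vector, by 0.73 and 0.91.

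The ER chaperone genes of the ATF6 and IRE1 arms, the branches of the unfolded protein response that run beside the eIF2α branch, were read from 12 genes tested. Of these, 0 rose and 4 fell in the mean of edited lines against empty vector: EDEM1, which directs misfolded proteins to degradation (-0.38, edgeR adjusted p 0.00665), the chaperone gene HSPA5 (-0.23, adjusted p 0.0301), DNAJB9 (-0.39, adjusted p 0.0357) and the factor XBP1 (-0.22, adjusted p 0.045). All 12 had a negative log2 fold change, with a median of -0.19 against 0.02 for all genes. HSPA5 was 1114 to 1131 CPM in the empty vector and 879 to 1061 in the edited libraries, without overlap. The share of all genes without overlap over the edited libraries together was not computed. Parental cells had 2 of the 12 lower (median -0.21, EDEM1 -0.51, edgeR adjusted p 0.00953), and against parental cells 0 of the 12 were called in the mean of edited lines. The shares of all tested genes called against empty vector were 6.43% for the mean of edited lines and 4.37% for parental cells. For the mean of edited lines against parental cells the share was 0.166%, so few calls were possible there. Without guide 2 replicate 2 the counts were 6 lower for the mean of edited lines and 6 lower for parental cells, and 1 of the 12 was higher in the mean of edited lines against parental cells. The shares of all genes called in these comparisons were 18.8%, 13.9% and 13.1%.

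Without guide 2 replicate 2 more genes of these lists were called in the mean of edited lines against empty vector, as for all genes, of which 18.8% were called. The counts were 1 higher and 1 lower of 8 eIF2α kinase and phosphatase genes, 2 higher and 3 lower of 14 other ATF4-induced regulators, and 1 higher and 1 lower of 11 amino acid metabolism genes. They were 3 lower of 9 transporters, 0 of 14 synthetase genes (2 at an unadjusted p under 0.05), 1 higher of 8 folate enzymes, 2 higher of 11 NRF2 and glutathione genes and 3 higher of 10 proliferation genes. TYMS was the folate gene that rose (0.40, edgeR adjusted p 0.0329).

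The members did not move as a unit across libraries. Over 45 pairs of members the median Pearson r of log2 CPM was -0.07, and 5 pairs, 2 positive and 3 negative, had a Pearson permutation p under 0.05 after Benjamini-Hochberg adjustment over the 45, against 0 by Spearman. ATF4 and PHGDH had r 0.86 (permutation p 0.00011, adjusted p 0.00495) and rho 0.70 (permutation p 0.00572, adjusted p 0.0643), and r was 0.75 without the 2 libraries farthest from the median ATF4. TRIB3 and PHGDH had r -0.76 (permutation p 0.00083, adjusted p 0.0187), rho -0.64 (permutation p 0.0118, adjusted p 0.0882) and r -0.73 without 2 libraries. Without guide 2 replicate 2 these were 0.73 and -0.64, and no pair of the 45 then had an adjusted p under 0.05. Replicates of a genotype share a line, so the 15 libraries are not fully independent.

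**Figure D4:**
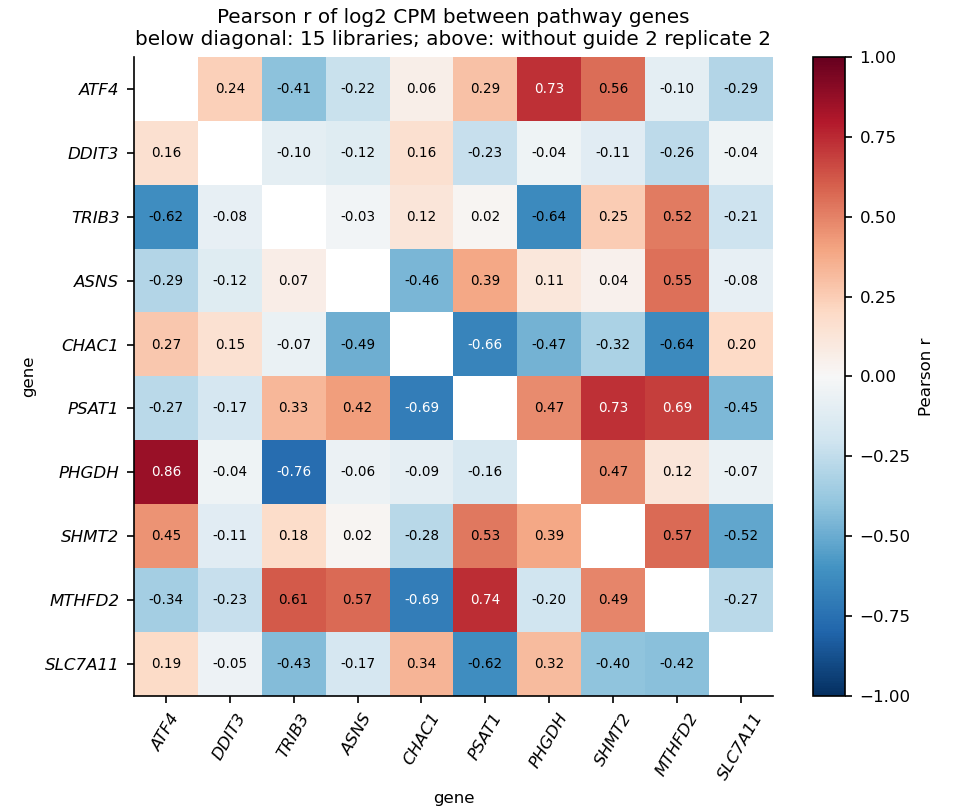
Pearson r of log2 CPM for each pair of members, over 15 libraries below the diagonal and without guide 2 replicate 2 above it; the colour scale runs from -1 to 1. ATF4 with PHGDH is the highest value over 15 libraries, at 0.86. Without guide 2 replicate 2 it is 0.73, as is PSAT1 with SHMT2. CHAC1 has negative values with PSAT1 and MTHFD2 on both sides, at -0.69 for each over all libraries.

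CHAC1 had r -0.69 with PSAT1 and -0.69 with MTHFD2 (adjusted permutation p 0.039 for each by Pearson), but -0.09 with PHGDH and -0.28 with SHMT2, which missed the threshold. PSAT1 and MTHFD2 ran together (r 0.74, adjusted permutation p 0.0241 by Pearson). The genes outside the set whose log2 CPM was most like the mean standardised level of the 10 members were MT1E (r 0.735), EXOSC6 (0.718), YWHAE (0.718), UPF3B (0.711) and DNAJC8 (0.71), given as a description over 15 libraries. The closest to ATF4 were NRSN2 (0.953) and SECTM1 (0.912), to DDIT3 HIBADH (0.673) and RPS27P3 (0.658), and to ASNS RIMOC1 (0.768) and SPRING1 (0.761). For ASNS these rest on few counts.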

How the data were processed

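The authors deposited whole-number counts per Ensembl gene and CPM, which are the same counts divided by library totals (equal within 4.91e-11). Trim Galore 0.6.0, STAR 2.7.8a and GRCh38 are named in the submitters' processing notes; the counting program and strand setting are not given in the sources used here. Positions are from GENCODE release 29. The counts were tested with edgeR 4.0.16 in R 4.3.3 (filterByExpr, TMM scaling, quasi-likelihood, 1 group-means model over 15 libraries with 10 residual degrees of freedom, two-sided, Benjamini-Hochberg adjustment over 17457 genes, called at an adjusted p under 0.05). Confidence intervals are 95%. Pairs of members were compared on log2 CPM (prior count 2) with 100000 permutations, two-sided. The members and lists were chosen with earlier results of these data known. Named genes are the 10 members, NF1 and the genes most correlated with the members. From each list at most 4 called in any of 12 comparisons are named (else the 2 with the largest change in the mean of edited lines). CD3E, KRT5, KRT8, MARS, SLC4A5 and ENSG00000284707 were added after their values were seen. One gene that the rule names is not reported here. Alternatives were RLE scaling, no filter, a replicate block, DESeq2 1.42.0, voom with quality weights in limma 3.58.1, only the compared groups, the mean of both controls, and each library left out. On simulated counts (guide 1 against empty vector, 200 of 17158 genes changed 2-fold) 57% of changed genes were recovered and 2.56% of calls were false. Detection limits cover counting error alone, because the reads carry no molecular identifiers and copies of one molecule may be counted more than once. Equal replicate numbers were checked by correlating deviations from genotype means: for empty vector with guide 1 all 3 were above 0.1 (0.136 to 0.28), and in the other group pairs they were not.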

Additional observations from a re-analysis of the deposited data

How the results depend on the processing

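Of the values recomputed, 2465 kept their side of the threshold, and 60 passed it newly in the same direction. Another 2 passed it with the direction reversed, both with voom and sample quality weights: TRIB3 in guide 2 against parental (-0.40, from 0.23) and in both guides against guide 2 (0.58, from -0.05). Direction was compared only where a member was called, so the 2465 include uncalled values that changed sign. An example is TRIB3 in guide 2 against parental, at -0.43 without guide 2 replicate 2. The count of members called was 0 in all 12 comparisons with all libraries, with RLE scaling and with a replicate block, and 0 against the 2 controls averaged. It became 1 in guide 1 against empty vector with no filter (975 genes called in all), with DESeq2 (1847) and with only the compared groups (2608); that last fit also called 4 in both guides against empty vector (3054 genes in all) and 1 in both guides against guide 1 (1252). With voom and quality weights it was 4, 2, 2, 5 and 5 against empty vector (mean of edited lines, guide 1, guide 2, both guides, parental), 4, 6 and 2 against parental (mean of edited lines, guide 1, guide 2), and 2, 7 and 3 between lines. Leaving out each library in turn gave 0 to 2 for the mean of edited lines and for parental against empty vector and for guide 1 against parental, 0 to 1 for guide 1 and for guide 2 against empty vector and for both guides against guide 1, and 0 in the others; the causes beyond the change of libraries were not tested. The 5 related pairs became 0 without guide 2 replicate 2 and stayed at 5 with a prior count of 0.5. Over 30 same-numbered pairs the mean correlation was -0.05, and 1 library correlated best with its own number; the replicate block left the TRIB3 value of guide 1 at -1.10 (edgeR adjusted p 0.108) and changed no member's call. ASNS and CHAC1, with at most 28 and 69 counts, are limited by their low counts. For ASNS the level is also uncertain, because its coding bases are shared with a second gene model.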
